A study of Mus musculus with 11 samples.

Results

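The NRF2 pathway and the thioredoxin and glutathione systems that it controls were followed through 10 genes, chosen by symbol and matched to Ensembl gene IDs through GENCODE M21 (GRCm38). All 10 were among the 56748 genes of the deposited table, and all 10 passed the filter on low counts. They are Nfe2l2, which encodes NRF2, its inhibitor gene Keap1, the thioredoxin genes Txnrd1, Txn1, Prdx1 and Srxn1, the glutathione synthesis genes Gclc and Gclm, and the classical target genes Hmox1 and Nqo1. The RNA-seq libraries of liver CD4 T cells comprised 6 labelled ATG5TLymph-/-, whose T lymphocytes lack Atg5 (Atg5-deficient), and 5 labelled wildtype, which the series describes as ATG5fl/fl, with the floxed gene undeleted (wild-type). Both groups were injected with carbon tetrachloride (CCl4), a hepatotoxin that leads to fibrosis, for 5 weeks, so there is no uninjured liver. The sources used here give neither the Cre driver nor the age of the mice, and do not say that each library is a separate mouse; a p-value here weighs a difference against the spread of the libraries alone. The design text speaks of flow-sorted cells and the sample protocols of paraffin-embedded sections.

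NRF2 is a transcription factor that KEAP1 holds in the cytoplasm and hands to a CUL3 ubiquitin ligase for degradation. Oxidants and electrophiles modify cysteines of KEAP1, NRF2 then accumulates, pairs with a small MAF protein and binds antioxidant response elements in its target genes. The autophagy receptor p62, encoded by Sqstm1, can also bind KEAP1, and its build-up in autophagy-deficient hepatocytes of mice is known to activate NRF2. In T cells, thioredoxin and glutathione supply the reducing power for DNA synthesis and growth after activation. NRF2 is controlled largely at the protein level, which RNA counts do not measure.

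The core of the antioxidant response element, TGACNNNGC, was searched on both strands of the RefSeq promoter windows (GRCm38.p6), from 250 bases before to 50 bases after each annotated start. Windows were found for 8 of the 10 genes, all but Gclc and Hmox1, and 5 of the 8 held a match, against 14% of all 27025 genes with windows. Of the 10 windows of these 8 genes, 5 held one, against 12.4% of all 32851 windows. The genes were picked as part of the NRF2 pathway, so these shares are a description and no test. The matching stretches are shown because they hold the core of the element that NRF2 is known to bind. Each is written 5′ to 3′ on the strand of the gene, with the match in capitals.
Nfe2l2 (chr2:75704885-75704913, minus strand): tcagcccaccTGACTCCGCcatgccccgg
Txnrd1 (chr10:82859104-82859132, plus strand): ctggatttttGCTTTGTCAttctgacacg
Prdx1 (chr4:116685456-116685484, plus strand): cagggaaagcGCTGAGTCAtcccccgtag
Srxn1 (chr2:152105542-152105570, plus strand): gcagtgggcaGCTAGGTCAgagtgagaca
Gclm (chr3:122245413-122245441, plus strand): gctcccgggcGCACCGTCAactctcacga
The match lay 240 bases before the start of Nfe2l2, 92 before that of Txnrd1, 133 before that of Prdx1 and 134 before that of Gclm, and it began 28 bases after the start of Srxn1. In Txnrd1 it lay in 1 of the 3 annotated start windows. All but that of Nfe2l2 read on the opposite strand of the gene, and that of Prdx1 overlaps the AP-1 motif TGAGTCA. The windows of Keap1, Txn1 and Nqo1 did not hold these letters. Sequence outside the windows was not searched, so a missing match does not show that a gene lacks an element. A match describes the sequence and is no evidence of binding in these cells.

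Libraries held 30699408 to 47564440 counts, and values are CPM, read counts relative to the library total after TMM scaling, unless said otherwise. Markers of CD4 T cells, relative to unscaled totals, summed to 2438 to 3826 CPM in Atg5-deficient and 2520 to 2814 CPM in wild-type libraries, and 1 of 7, Cd5, rose. CD8 T cell markers summed to at most 6.55 CPM. Hepatocyte markers had the widest range in CPM among the other cell types examined, at 65.0 to 1121 CPM in Atg5-deficient and 47.7 to 646 CPM in wild-type libraries, and 0 of their 10 genes passed the test. Macrophage and Kupffer cell markers, of which 0 of 4 tested genes passed, summed to 5.29 to 18.9 CPM in Atg5-deficient libraries, against 9.42 to 13.97 CPM in wild-type ones. Of the markers of other cell types, only Itgax, a dendritic cell gene, was called, higher at a mean of 2.14 CPM in Atg5-deficient libraries, against 0.323 CPM in wild-type ones. Atg5-deficient library 4 stood apart for cholangiocyte markers, at 102.4 CPM against 3.59 to 11.4 CPM in the remaining 10 libraries, and for NK cell markers, at 87.6 CPM against 8.79 to 31.7 CPM. None of the 14 marker sums passed after adjustment, and 2 had an unadjusted p under 0.05, those of CD4 T cells and neutrophils (two-sided exact permutation test on each sum, smallest adjusted p = 0.318). The mitochondrial share was 4.92% to 8.41% in Atg5-deficient and 6.76% to 7.435% in wild-type libraries (exact permutation test, adjusted p = 0.797). In bulk RNA, more cells of a type and more RNA per cell cannot be told apart. Atg5 itself averaged 19.1 ± 2.50 CPM in the 6 Atg5-deficient libraries, against 16.9 ± 3.58 CPM in the 5 wild-type libraries (± SD). Its counts cover the whole gene, the exons outside the deleted part included, and do not check the genotype. Atg7, another gene of the same conjugation system, averaged 21.8 ± 2.58 CPM in Atg5-deficient libraries, against 17.9 ± 2.66 CPM in wild-type ones (± SD; log2 fold change 0.28, adjusted p = 0.163).

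Of the 10 genes, Txnrd1 and Txn1, the enzyme and substrate at the centre of the thioredoxin system, rose in Atg5-deficient libraries, none fell and 8 did not pass the test (edgeR quasi-likelihood test, adjusted p under 0.05 over 17987 genes). The background in that test was 6.84% of all genes called, 4.43% higher and 2.41% lower. None of the 10 was lower at an unadjusted p under 0.05, or by DESeq2 or limma-voom. Log2 fold changes were positive for 9 of the 10 genes, with a median of 0.41, against 49.7% of all genes and a median of -0.0027. Nfe2l2 was the exception, at -0.26. Unadjusted p was under 0.05 for 5 of the 10 genes and for 23.4% of all genes. In none of the 10 genes did the groups stand fully apart, which they did in 4.86% of all genes. A subset of 8 libraries has consecutive title numbers (5 Atg5-deficient and 3 wild-type), without Atg5-deficient library 6 and wild-type libraries 1 and 5. Within it, 0.935% of all genes and none of the 10 were called by edgeR. Log2 fold changes there were 0.54 for Txnrd1 (adjusted p = 0.127) and 0.54 for Txn1 (adjusted p = 0.263).

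**Figure D1:**
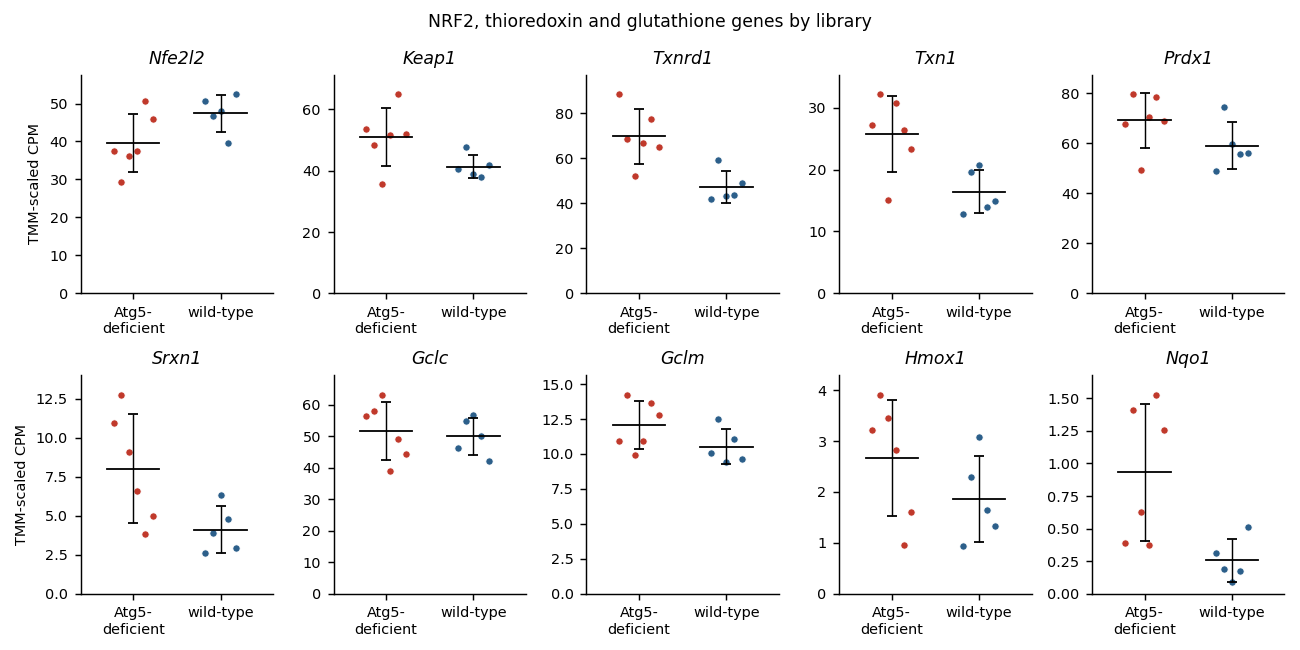
TMM-scaled CPM of each of the 10 genes in each library (points), with the mean (line) and SD (bars) of 6 Atg5-deficient and 5 wild-type libraries, on linear axes from 0. Txnrd1 averages 69.7 CPM in Atg5-deficient libraries, against 47.3 CPM in wild-type ones, and Txn1 25.8 CPM in Atg5-deficient libraries, against 16.4 CPM in wild-type ones, while the groups overlap in every panel.

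Among the regulators, Nfe2l2 (ENSMUSG00000015839, chromosome 2, 75675513 to 75704641, minus strand) had 37.5, 29.2, 36.2, 37.6, 50.8 and 46.0 CPM in Atg5-deficient libraries 1 to 6, against 50.6, 46.6, 47.9, 39.65 and 52.4 CPM in wild-type libraries 1 to 5. Atg5-deficient libraries 1 to 4 lay below every wild-type library, and libraries 5 and 6 lay within the wild-type range. The log2 fold change was -0.26 (SE 0.13, 95% interval -0.53 to 0.01, adjusted p = 0.231). Keap1 (ENSMUSG00000003308, chromosome 9, 21229730 to 21239361, minus strand) had 53.7, 48.3, 35.6, 51.7, 64.8 and 51.9 CPM in Atg5-deficient libraries, against 40.4, 47.6, 38.9, 37.99 and 41.9 CPM in wild-type libraries. The third Atg5-deficient library was the lowest of all 11, and the remaining 5 exceeded every wild-type value. Its log2 fold change of 0.30 (SE 0.12, adjusted p = 0.153) passed the test without Atg5-deficient library 3, at 0.39 (adjusted p = 0.0173). Inhibitor and factor thus had estimates of opposite sign, neither past the threshold. Keap1 shares 510 exonic bases with the antisense gene Gm16754, whose count was 0.939% of its own.

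Txnrd1 encodes cytosolic thioredoxin reductase, a selenoprotein that uses NADPH to reduce thioredoxin (ENSMUSG00000020250, chromosome 10, 82833951 to 82897712, plus strand). It had 88.2, 68.6, 52.1, 66.7, 77.5 and 65.1 CPM in Atg5-deficient libraries, against 41.7, 59.1, 43.0, 43.8 and 48.9 CPM in wild-type libraries. All Atg5-deficient libraries but the third were above every wild-type library, and that one exceeded 4 of 5. The log2 fold change was 0.56 (SE 0.13, 95% interval 0.29 to 0.83, adjusted p = 0.0205). With each library left out in turn it passed in 9 of 11 fits, and it missed the threshold without wild-type library 1 (0.52, adjusted p = 0.0553) or 4 (0.53, adjusted p = 0.0542). Among the genes shown above with a match, Txnrd1 alone passed the test. Among Keap1, Txn1 and Nqo1, whose windows held no match, Txn1 alone passed.

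Txn1 encodes thioredoxin, the small protein that passes electrons to ribonucleotide reductase and peroxiredoxins (ENSMUSG00000028367, chromosome 4, 57943373 to 57956411, minus strand). It had 27.2, 32.1, 15.01, 30.7, 26.3 and 23.3 CPM in Atg5-deficient libraries, against 12.9, 19.6, 20.7, 14.0 and 14.9 CPM in wild-type libraries. Again Atg5-deficient library 3 stood within the wild-type range and the other 5 lay above it. The log2 fold change was 0.65 (SE 0.18, 95% interval 0.26 to 1.05, adjusted p = 0.0490), just inside the threshold. The call held in 3 of the 11 fits, those without Atg5-deficient library 3 and without wild-type library 2 or 3, and was lost in the other 8, where the log2 fold change was 0.58 to 0.68. With upper-quartile scaling it missed the threshold too (0.58, adjusted p = 0.0650). Txn1 has an annotated processed pseudogene, Txn-ps1, with which reads could be shared.

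Peroxiredoxins reduce hydrogen peroxide with electrons from thioredoxin, and sulfiredoxin restores peroxiredoxins that have been overoxidised. Prdx1 (ENSMUSG00000028691) had 67.6, 79.6, 49.4, 70.7, 78.7 and 68.9 CPM in Atg5-deficient libraries, against 49.1, 74.5, 59.9, 55.7 and 56.05 CPM in wild-type libraries. The groups overlapped over most of their range, with a log2 fold change of 0.23 (SE 0.13, adjusted p = 0.301). Srxn1, the sulfiredoxin gene (ENSMUSG00000032802, chromosome 2, 152105516 to 152111376, plus strand), had 10.9, 12.8, 9.08, 6.59, 3.85 and 4.96 CPM in Atg5-deficient libraries, against 2.64, 3.87, 6.35, 4.79 and 2.95 CPM in wild-type libraries. Libraries 1 to 4 of the Atg5-deficient group exceeded every wild-type library, and libraries 5 and 6 did not. The log2 fold change of 0.96 (SE 0.32, 95% interval 0.27 to 1.65, adjusted p = 0.0855) missed the threshold, and passed with DESeq2 (adjusted p = 0.0182).

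Glutathione is made in 2 steps, the first by glutamate-cysteine ligase, with the catalytic subunit GCLC and the modifier subunit GCLM. Gclc (ENSMUSG00000032350) had 56.3, 58.05, 63.1, 39.0, 49.1 and 44.3 CPM in Atg5-deficient libraries, against 46.2, 54.7, 56.6, 50.01 and 42.2 CPM in wild-type libraries. Atg5-deficient libraries held both the highest and the lowest value, and the log2 fold change was 0.049 (SE 0.12, 95% interval -0.22 to 0.31, adjusted p = 0.855), with a sign that turned under several settings. Gclm (ENSMUSG00000028124) had 10.9, 14.2, 9.96, 10.9, 13.7 and 12.8 CPM in Atg5-deficient libraries, against 10.1, 12.5, 9.43, 11.05 and 9.62 CPM in wild-type libraries. Its log2 fold change was 0.20 (SE 0.13, 95% interval -0.08 to 0.48, adjusted p = 0.390), with 3 Atg5-deficient libraries higher than all wild-type ones. Gclm overlaps Gm6061 and Gm17494, with 4.18% and 2.67% of its count.

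Of the classical targets, Hmox1, which encodes the inducible haem oxygenase (ENSMUSG00000005413), was low throughout. It had 3.21, 3.91, 3.46, 2.83, 0.961 and 1.6 CPM in Atg5-deficient libraries, against 0.940, 2.29, 3.08, 1.65 and 1.32 CPM in wild-type libraries. The groups overlapped and the log2 fold change was 0.52 (SE 0.39, 95% interval -0.31 to 1.34, adjusted p = 0.458). Nqo1, the quinone reductase gene often used as the readout of NRF2 activity (ENSMUSG00000003849, chromosome 8, 107388225 to 107403206, minus strand), was counted 14, 56, 20, 14, 62 and 48 times in Atg5-deficient libraries, against 12, 6, 4, 6 and 20 times in wild-type libraries. In CPM these were 0.388, 1.41, 0.628, 0.371, 1.53 and 1.26 in Atg5-deficient libraries, against 0.313, 0.193, 0.0904, 0.171 and 0.509 in wild-type libraries. Atg5-deficient libraries 1 and 4 lay below wild-type library 5, and the other 4 lay above all wild-type libraries. Its log2 fold change of 1.855 (SE 0.56, 95% interval 0.65 to 3.06) was the largest of the 10 genes and missed the threshold (adjusted p = 0.0612).

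**Figure D2:**
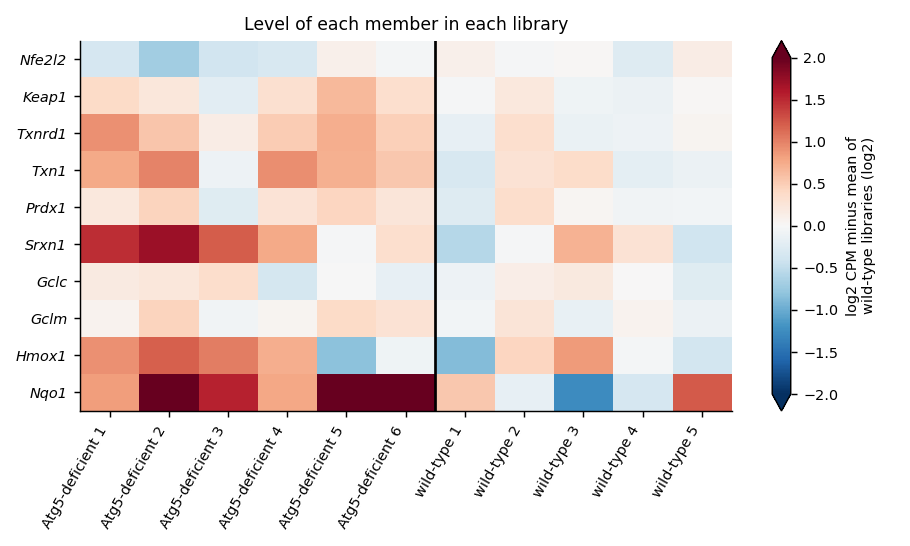
Log2 CPM of each gene in each library minus the mean of the 5 wild-type libraries (colour, log2 units, values beyond 2 in either direction shown in the end colours), with Atg5-deficient libraries left of the black line. Srxn1 and Hmox1 are higher in Atg5-deficient libraries 1 to 4 than in 5 and 6. Nqo1 lies above the wild-type mean in every Atg5-deficient library and is highest in libraries 2, 5 and 6. Txnrd1, Txn1 and Keap1 are lower in Atg5-deficient library 3 than in the other Atg5-deficient libraries.

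The genes therefore did not rank the Atg5-deficient libraries alike. Atg5-deficient library 5 was highest for Keap1 and Nqo1 and lowest for Srxn1 and Hmox1 within its group. Library 3 was lowest for Keap1, Txnrd1, Txn1, Prdx1 and Gclm and highest for Gclc. It also had the lowest CD4 T cell marker sum of all 11 libraries, at 2438 CPM. The remaining Atg5-deficient libraries, at 2996 to 3826 CPM, lay above all wild-type libraries, as they did for Keap1, Txnrd1 and Txn1. The sums of library 3 were the highest of all 11 for B cell (24.85 CPM), plasma cell (58.8 CPM), macrophage and Kupffer cell (18.9 CPM) and platelet and megakaryocyte markers (9.48 CPM). The part of cell composition in the values of library 3 was not tested. Without library 3, Keap1, Nqo1, Txn1 and Txnrd1 were called, 4 of the 10, where 12.1% of all genes were called. Without wild-type library 1 or wild-type library 4 none of the 10 was, where 3.65% and 3.85% of all genes were called.

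Hepatocyte transcripts, which the libraries held in unequal amounts, moved with some of these genes. Summed hepatocyte markers were 1053, 1121, 828, 65.0, 141 and 267 CPM in Atg5-deficient libraries 1 to 6, against 92.2, 426, 646, 348 and 47.7 CPM in wild-type libraries 1 to 5. The 4 libraries with the highest sums, Atg5-deficient 1 to 3 and wild-type 3, also held the 4 highest values of Gclc (56.3 to 63.1 CPM) and of Hmox1 (3.08 to 3.91 CPM). Atg5-deficient libraries 1 to 3 held the 3 highest values of Srxn1. With the hepatocyte sum as a covariate, a fit added after these values were seen, the log2 fold change of Srxn1 was 0.72 (adjusted p = 0.0681), that of Hmox1 0.35 and that of Gclc -0.058. With the sum of all other-cell markers, hepatocyte markers included, it was 0.55 for Srxn1, 0.16 for Hmox1 and -0.083 for Gclc. The covariates thus share genes, and the fits are not separate checks. Txnrd1 kept its call in both fits, at 0.55 (adjusted p = 0.0259) and 0.56 (adjusted p = 0.0282), and Nqo1 passed in both, at 2.18 and 2.17 (adjusted p = 0.0425 and 0.0422). Txn1 missed the threshold in both, at 0.64 and 0.63 (adjusted p = 0.0555 and 0.0654). The part of hepatocyte RNA in these results was not tested beyond these fits. Of the 10 macrophage and Kupffer cell markers, Cd68 reached 15.96 CPM, Csf1r 1.56 CPM, Marco 1.53 CPM and Clec4f 0.885 CPM in a library, and the other 6 at most 0.703 CPM. The maximum of Cd68 exceeded every value of Hmox1 and Nqo1, and the other maxima are of the size of the levels of those genes. The part of macrophage RNA in the levels of Hmox1 and Nqo1 was not tested.

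**Figure D3:**
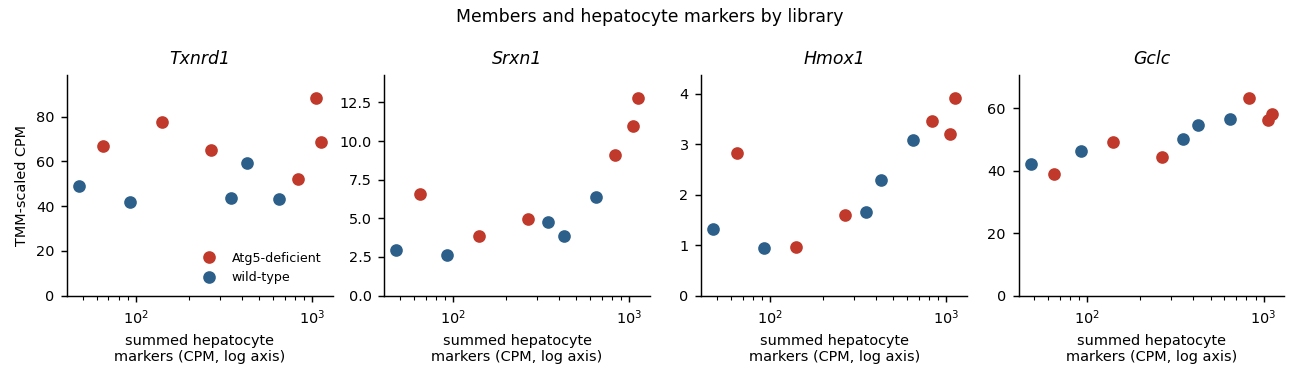
TMM-scaled CPM of Txnrd1, Srxn1, Hmox1 and Gclc (vertical, linear from 0) against summed hepatocyte markers (horizontal, CPM, log axis), with 1 point per library. Gclc is highest in the 4 libraries with sums of 646 to 1121 CPM. Txnrd1 is highest in Atg5-deficient library 1 (88.2 CPM, sum 1053 CPM), followed by Atg5-deficient library 5 (77.5 CPM, sum 141 CPM).

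Per kilobase of exon, the genes fell into an upper and a lower group in both genotypes. In Atg5-deficient libraries the median level was 25.5 CPM per kb for Txn1, 22.9 for Prdx1, 14.0 for Gclc, 11.03 for Keap1, 9.89 for Nfe2l2 and 9.55 for Txnrd1, followed by 2.78 for Srxn1, 1.88 for Gclm, 1.73 for Hmox1 and 0.608 for Nqo1. In wild-type libraries the medians were 18.4 CPM per kb for Prdx1, 14.1 for Txn1, 13.3 for Gclc, 12.6 for Nfe2l2, 8.61 for Keap1 and 6.17 for Txnrd1, then 1.602 for Gclm, 1.37 for Srxn1, 0.943 for Hmox1 and 0.125 for Nqo1. In Atg5-deficient libraries the ranges of all neighbours in that order overlapped, except Txnrd1 at 7.35 to 12.45 CPM per kb, which stood above Srxn1 at 1.36 to 4.53. In wild-type libraries neighbours overlapped with 3 exceptions. Nfe2l2 at 10.4 to 13.8 CPM per kb stood above Keap1 at 8.10 to 10.1, Txnrd1 at 5.89 to 8.34 above Gclm at 1.499 to 1.98, and Hmox1 at 0.537 to 1.76 above Nqo1 at 0.0582 to 0.328. Lengths are the union of all annotated exons, so genes with long rare transcripts are understated.

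The other genes of the pathway were followed in 5 lists with 81 genes, of which 76 passed the filter. Of these, Glrx, Gsr and Ugdh rose, Bach2, Txnip and Sesn1 fell and 70 did not pass, 3.95% in each direction, against 4.43% of all genes higher and 2.41% lower. These lists were chosen with earlier results known, and the 8 consecutively numbered libraries gave none of these calls. The median log2 fold change was 0.12.

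**Figure D4:**
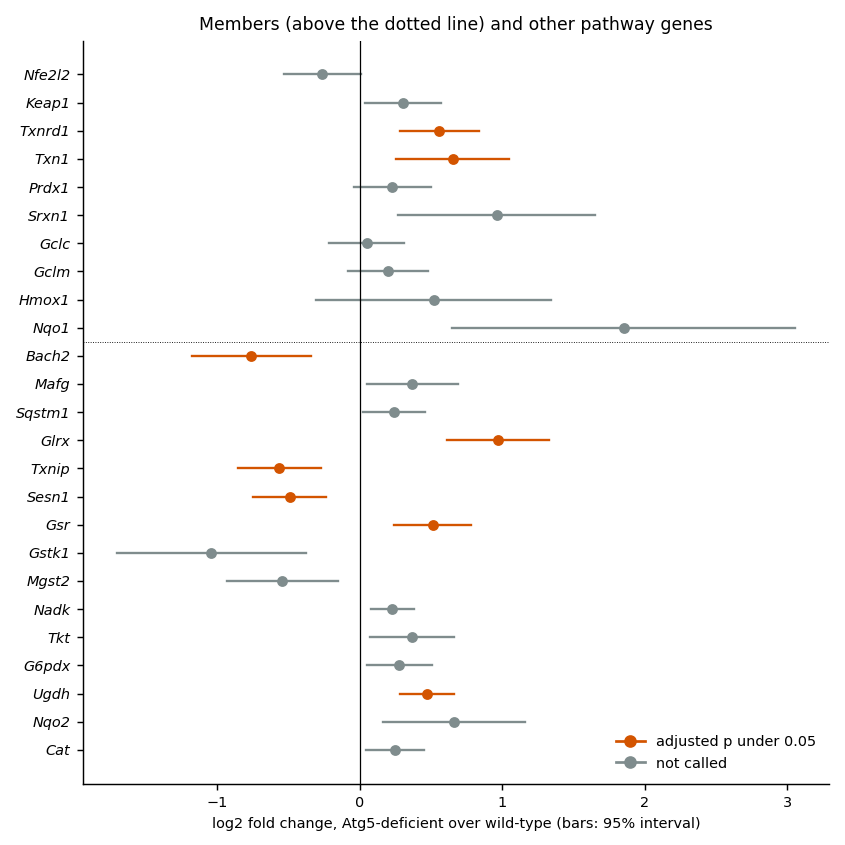
Log2 fold change, Atg5-deficient over wild-type, with its 95% interval for the 10 genes (above the dotted line) and 15 further genes of the pathway. Orange marks adjusted p under 0.05; among the 10 genes Txnrd1 and Txn1 are orange, and among the others Glrx has the largest called rise at 0.97.

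In the list of NRF2 regulators 1 of 11 genes fell and none rose. Bach2, a repressor that competes for elements of the same kind together with small MAF proteins and that keeps T cells quiescent, had 104.5, 92.1, 176, 85.5, 129 and 171 CPM in Atg5-deficient libraries, against 246, 170.4, 189, 236 and 230 CPM in wild-type libraries. Wild-type library 2 lay below Atg5-deficient libraries 3 and 6, and the log2 fold change was -0.76 (SE 0.19, adjusted p = 0.0356). That call held in 3 of the 11 fits, without Atg5-deficient library 3 or 6 or wild-type library 2. Sqstm1, the p62 gene, averaged 225 ± 29.2 CPM in Atg5-deficient libraries, against 189.9 ± 19.4 CPM in wild-type libraries (± SD), and did not pass (0.24, SE 0.10, adjusted p = 0.167). Mafg, a small MAF partner of NRF2, averaged 34.7 ± 5.91 CPM in Atg5-deficient libraries, against 26.9 ± 5.43 CPM in wild-type ones (0.37, adjusted p = 0.150), and shares 124 exonic bases with Sirt7 on the same strand.

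The thioredoxin list held both directions, with 1 of 18 genes higher and 2 lower. Glrx, which encodes glutaredoxin-1, an enzyme that removes glutathione from protein thiols, had 57.3, 72.7, 39.7, 89.2, 63.2 and 53.1 CPM in Atg5-deficient libraries, against 30.9, 29.1, 38.1, 31.4 and 29.9 CPM in wild-type libraries. The groups did not overlap, and the log2 fold change of 0.97 (SE 0.17, adjusted p = 0.00684) passed in all 11 fits with a library left out. Txnip, which encodes the protein that binds and inhibits thioredoxin, had 957, 961, 1130, 724, 1182 and 1189 CPM in Atg5-deficient libraries, against 1747, 1561, 1206, 1309 and 1744 CPM in wild-type libraries. Here too the groups stood apart, although the gap to wild-type library 3 was small (log2 fold change -0.56, SE 0.14, adjusted p = 0.0266). Txnip passed in 7 of the 11 fits, not without Atg5-deficient library 1 or 2 or wild-type library 1 or 5. Sesn1, a sestrin gene of the p53 and FOXO response, fell to 61.4 ± 10.9 CPM in Atg5-deficient libraries, against 86.5 ± 10.9 CPM in wild-type libraries (-0.49, SE 0.12, adjusted p = 0.0272). It passed in 5 of the 11 fits and was lost without Atg5-deficient library 1, 2 or 4 or wild-type library 1, 2 or 5.

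In the glutathione list 1 of 21 tested genes rose and none fell. Gsr, the glutathione reductase gene, had 34.7, 36.4, 26.1, 40.1, 40.5 and 27.0 CPM in Atg5-deficient libraries, against 21.8, 22.3, 23.65, 24.7 and 27.3 CPM in wild-type libraries. Only wild-type library 5 reached into the Atg5-deficient range, and the log2 fold change was 0.51 (SE 0.13, adjusted p = 0.0286). The call held without Atg5-deficient library 3 or 6 or wild-type library 5 and missed the threshold in the other 8 fits, where the adjusted p reached 0.0703. The glutathione transferase genes Gstk1 (-1.04, SE 0.31, adjusted p = 0.0566) and Mgst2 (-0.54, SE 0.18, adjusted p = 0.0835) did not pass. Slc7a11, the cystine transporter gene that NRF2 and ATF4 induce, was too low to be tested, with 0 to 24 counts in a library.

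Of 12 genes that supply NADPH, the electron donor of both systems, none passed with edgeR, with a list median of 0.22. An unadjusted p under 0.05 was reached by 5 of these 12, by 3 of 11 NRF2 regulators, 6 of 18 thioredoxin genes, 4 of 21 glutathione genes and 5 of 14 genes of the last list, against 23.4% of all genes. Nadk, the NAD kinase gene, ranged over 67.6 to 76.6 CPM in Atg5-deficient libraries, against 55.4 to 65.7 CPM in wild-type ones. Its groups did not overlap, yet its log2 fold change of 0.23 (SE 0.07, adjusted p = 0.0632) missed the threshold. Values for the pentose phosphate genes were 0.37 for Tkt (adjusted p = 0.119) and 0.28 for G6pdx (adjusted p = 0.132), which overlaps Ikbkg on the other strand. Over the 5 lists together DESeq2 called 11 of 77 genes (14.3%, 6 higher and 5 lower), where it called 12.8% of all genes. Limma-voom called 20 of 76 (26.3%, 15 higher and 5 lower), where it called 19.0% of all genes.

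Among 14 genes of haem, iron and superoxide handling 1 rose. Ugdh, which encodes the dehydrogenase that makes UDP-glucuronate for conjugation reactions, had 21.2, 23.9, 20.1, 20.6, 22.6 and 20.4 CPM in Atg5-deficient libraries, against 15.9, 16.6, 14.9, 15.6 and 14.2 CPM in wild-type libraries. The groups stood apart, and the log2 fold change of 0.48 (SE 0.09, adjusted p = 0.00900) passed in all 11 fits with a library left out. Ugdh shares 158 exonic bases with Gm43552 on the same strand, whose count was 40.2% of its own. Nqo2, a quinone reductase gene related to Nqo1, averaged 11.3 ± 3.32 CPM in Atg5-deficient libraries, against 7.19 ± 1.57 CPM in wild-type ones (0.66, adjusted p = 0.100) and overlaps Serpinb6a, which had more counts. The catalase gene Cat averaged 70.6 ± 8.58 CPM in Atg5-deficient libraries, against 59.5 ± 5.38 CPM in wild-type ones (0.25, adjusted p = 0.129).

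**Figure D5:**
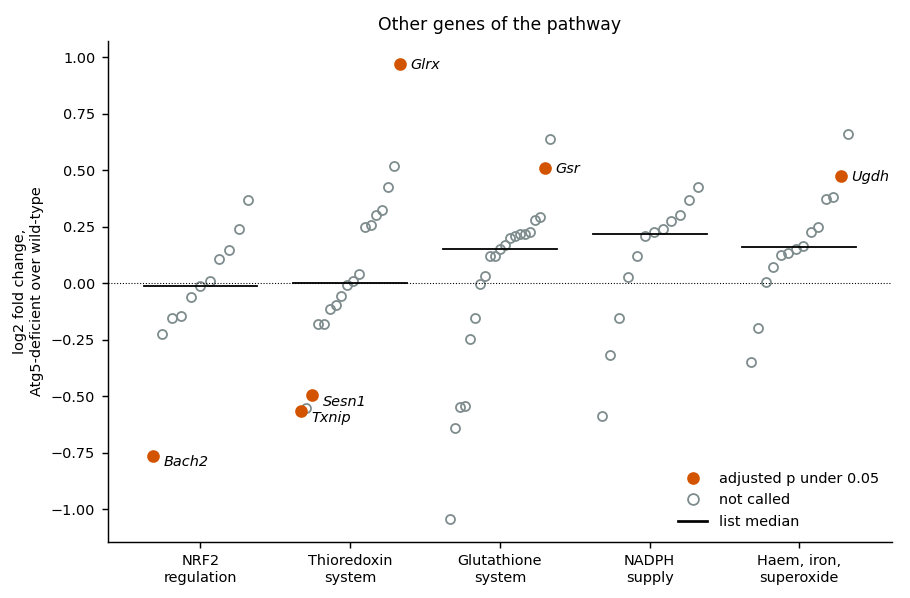
Log2 fold change, Atg5-deficient over wild-type, of the 76 tested genes of the 5 other lists, ordered by size within each list, with the list median as a line. The 6 filled points are the genes that passed, Glrx, Gsr and Ugdh above 0 and Bach2, Sesn1 and Txnip below it.

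Genes whose log2 CPM was most like that of Nfe2l2 over the 11 libraries were Trim12a (Pearson r 0.92), Pogz (0.89), Bcl9 (0.88), Evl (0.87) and Dbp (0.87). For Txnrd1, the member with the smallest p, they were Hmgb2 (0.97), Ak3 (0.96), Glipr2 (0.95), Ercc6l (0.95) and Slc38a10 (0.95). These are the highest values among all tested genes, over libraries that also differ in genotype, and are given as a description. Hmgb2, a chromatin protein gene abundant in dividing cells, had 376, 344, 226, 303, 362 and 326 CPM in Atg5-deficient libraries, against 166, 226, 168, 188 and 190 CPM in wild-type libraries. As for Txnrd1, Atg5-deficient library 3 was the lowest of its group and wild-type library 2 the highest of its group.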

How the data were processed

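The authors deposited 1 table of unnormalized read counts per Ensembl gene. The submitters' processing notes name STAR, featureCounts and GRCm38. Strand setting, multimapping, annotation release and tool versions: not given in the sources used here. The table had 0 columns of other samples. Of 56748 gene IDs, 91.9% matched GENCODE M21. The filter on low counts was filterByExpr, with a minimum count of 10 and a minimum total of 15. Genotype was tested in a robust edgeR quasi-likelihood fit of all 11 libraries after TMM scaling, and p-values of 17987 genes were adjusted by Benjamini and Hochberg's method (threshold 0.05). Intervals use the moderated degrees of freedom. In a library 3 counts are 0.0631 to 0.0977 CPM. Software versions were edgeR 4.0.16, DESeq2 1.42.0 and limma 3.58.1 in R 4.3.3. Other scalings, tools, filters, covariates and subsets of libraries were tried as alternatives. The fit was tested on simulated counts, where it called 16.4% of 1.5-fold, 46.3% of 2-fold and 65.2% of 4-fold changes. Of its 88 calls there, 3 were false. A gene that did not pass may therefore still differ.

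Members, lists and tests were chosen with earlier results of these data known. Replicates were numbered in accession order. Named are the 10 members, Atg5, Atg7, Sqstm1, the called genes of each other list, filled up to 3 by smallest p, and the 5 genes most correlated with Nfe2l2 and Txnrd1. Slc7a11 and pseudogene or overlap partners were named after their values were seen.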

Additional observations from a re-analysis of the deposited data

Results flagged for a closer look

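Among the 54 sets of values examined (27 genes in each genotype), 2 held a library that stood far from the rest of its group by Dixon's criterion, where chance flags about 1 in 20. Glrx was 38.05 CPM in wild-type library 3, against 31.36 CPM in the next wild-type library. Nqo2 was 4.932 CPM in Atg5-deficient library 3, against 11.09 CPM in the next of that group, and this library was also the lowest of its group for 5 of the 10 genes.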

How the results depend on the processing

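All 10 genes but Gclc kept their sign in every alternative run. Gclc turned to -0.017 with upper-quartile scaling, -0.083 with other-cell markers and -0.058 with hepatocyte markers as a covariate (a fit chosen after seeing the data), -0.015 in the 8 consecutively numbered libraries, -0.018 without Atg5-deficient replicate 3 and -0.0054 without wild-type replicate 5; the cause was not tested. Of the 10 genes, 1 was called with upper-quartile scaling, 4 with DESeq2, 5 with limma-voom and 0 in those 8 libraries, where fewer samples enter, and 0 to 4 when 1 library was left out. Counts of the other pathway genes were 11 with DESeq2, 20 with limma-voom, 0 in those 8 libraries and 2 to 18 when 1 library was left out. Over all genes, 2370 passed with DESeq2 (12.8%), 3426 with limma-voom (19.0%), 176 in those 8 libraries (0.935%) and 642 to 2143 when 1 library was left out, against 1231 (797 higher, 434 lower). With upper-quartile scaling 46.0% of called genes were higher, against 64.7%.

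Txnrd1 was not called in the 8 libraries (log2 fold change 0.54, adjusted p = 0.127). Txn1 was not called with upper-quartile scaling (0.58), other-cell markers (0.63), hepatocyte markers (0.64) or the 8 libraries (0.54). Calls were gained by Keap1 (0.35) and Prdx1 (0.34) with limma-voom, by Srxn1 with DESeq2 (0.97), limma-voom (1.17) and no low-count filter (0.96), and by Nqo1 with DESeq2 (1.88), other-cell markers (2.17) and hepatocyte markers (2.18). When 1 library was left out, log2 fold changes were -0.35 to -0.19 for Nfe2l2, 0.22 to 0.39 for Keap1, 0.48 to 0.66 for Txnrd1, 0.58 to 0.77 for Txn1, 0.17 to 0.33 for Prdx1, 0.78 to 1.18 for Srxn1, -0.018 to 0.12 for Gclc, 0.15 to 0.27 for Gclm, 0.35 to 0.78 for Hmox1 and 1.635 to 2.27 for Nqo1. The 15 other named genes stayed on their side of the threshold in 260 comparisons with an alternative, gained a call in 19 and lost one in 36. No marker sum passed when 1 library was left out (smallest adjusted p = 0.0556). Nqo1 failed the strict filter. Depth limits Nqo1 most, with 4 to 62 counts in a library. No paired analysis was possible because the labels do not pair Atg5-deficient with wild-type libraries.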

Other observations

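The level of Keap1 relative to Nfe2l2, each per kilobase of exon, was examined after both sets of values had been seen. It was 1.16, 1.34, 0.795, 1.11, 1.03 and 0.913 in Atg5-deficient libraries 1 to 6, against 0.646, 0.826, 0.656, 0.775 and 0.646 in wild-type libraries 1 to 5. Atg5-deficient library 3 lay below wild-type library 2, and the remaining 5 exceeded every wild-type value. No test was made of this ratio.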
